A study of Mus musculus with 6 samples.

Results

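Expression of 9 complement genes was followed here: the components C3, C4b, C2, Cfb and C1ra, the regulators Serping1, Cd55 and Cd59a, and the receptor C3ar1. They were picked by gene symbol, and all 9 were found among the 24493 genes of the deposited table. The RNA came from C57BL/6 mice carrying tumors implanted under the skin, from which pancreatic tumor cells were sorted, and the sample titles name the tumor line 6419c5. The 2 GAFCP libraries came from tumors treated with gemcitabine, abraxane, a CD40 agonist and blockade of PD-1 and CTLA-4. The 4 control libraries came from tumors without this combination. The labels give no age, time of sampling or vehicle, nor how the tumor cells were gated. Whether each library had its own animal or tumor is not given either, so the p-values rest on a spread between libraries that may be technical. Values are gene TPM, a transcript abundance corrected for length, so genes can be compared in level. TPM sums to a fixed total in each library, so each level is relative to all other genes, and sequencing depth is unknown.

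The complement system is a cascade of plasma and cell surface proteins that marks cells for uptake, recruits leukocytes and can open pores in membranes. The classical pathway starts when C1q binds its target, the protease C1r activates C1s, and C1s cleaves C4 and C2. The alternative pathway amplifies the reaction through factor B. Both routes assemble convertases that cleave C3, the central component, and surface proteins such as CD55 and CD59 hold the reaction back on host cells. The liver makes most circulating complement, while epithelial tumors, fibroblasts and macrophages are known to make components locally.

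Genes were tested with limma on log2(TPM + 1) where at least 2 libraries reached 1 TPM, and were called at a Benjamini-Hochberg adjusted p under 0.05, taken over all 13720 genes tested, of which 19.0% were called higher and 28.5% lower in GAFCP libraries. The libraries, labelled as tumor cells, held leukocyte transcripts in both groups and more of them in GAFCP. All 15 macrophage markers were called higher, and their summed level was 5302 to 5377 TPM in GAFCP, against 1437 to 1536 TPM in control libraries. Csf1r, a macrophage growth factor receptor, averaged 94.7 TPM in GAFCP and 18.1 TPM in control libraries. All 9 pan-leukocyte markers were called higher (sums of 289.8 to 300.1 TPM in GAFCP and 97.7 to 115.8 TPM in control libraries), as were 4 of 8 neutrophil markers, 5 of which were tested (95.4 to 106.5 TPM in GAFCP and 25.7 to 29.9 TPM in control). S100a8 and S100a9 made up most of the neutrophil sum in GAFCP libraries, averaging 56.6 and 30.9 TPM. Retnlg, the tested neutrophil marker not called, averaged 1.77 TPM in GAFCP and 2.63 TPM in control libraries. Ly6g, Camp and Ltf stayed under 1 TPM in every library. T and NK markers summed to 31.2 to 34.7 TPM in GAFCP and 4.69 to 6.86 TPM in control libraries; of 8 listed 7 were tested and called higher, 4 of these (Cd3e, Cd3g, Cd4 and Nkg7) reaching the filter only through GAFCP libraries. No B cell marker was tested (0.899 to 1.81 TPM in GAFCP and 0.328 to 0.494 TPM in control). Fibroblast markers, of which 7 of 11 were higher and 1 lower, summed to 340.8 to 342.2 TPM in GAFCP and 213.2 to 236.3 TPM in control libraries. Of 8 epithelial markers 6 were lower (5176 to 5206 TPM in GAFCP and 6806 to 7189 TPM in control), with Krt19 at 1021 TPM in GAFCP and 1615 TPM in control and Epcam at 1.54 TPM in GAFCP and 12.8 TPM in control. Of 8 endothelial markers 4 were tested, of which 1 was higher and 2 lower (12.5 to 14.1 TPM in GAFCP and 16.1 to 17.9 TPM in control libraries). Hepatocyte transcripts set control libraries 1 and 2 apart from control libraries 3 and 4, as given beside C3. The part of these marker levels in the complement values was not tested, and in bulk libraries fewer cells of a type and less RNA per cell cannot be told apart.

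The C1 inhibitor gene Serping1 was 9.45 times, the classical pathway genes C4b and C1ra 5.06 and 4.55 times, and the receptor gene C3ar1 3.41 times as high in GAFCP as in control libraries by mean TPM. The convertase protease genes C2 and Cfb were 2.75 and 2.14 times as high, Cd55 1.35 times, and C3 was 0.863 times as high. Of the 9 genes 8 were tested, and of these 7 were called higher and 1, C3, was called lower. Cd59a stayed under 1 TPM in every library and was not tested. Over all genes tested, 47.5% were called. Each of the 8 tested genes had GAFCP values outside the control range, 7 above it and C3 below it, where 61.6% of all tested genes had groups that did not overlap, 24.7% with GAFCP above and 36.9% with GAFCP below. Of the 8 tested genes, 6 were called with a log2 change of at least 1, against 4.69% of all genes tested. The median log2 change was 1.45 over the 8 tested genes and -0.07 over all genes tested.

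**Figure D1:**
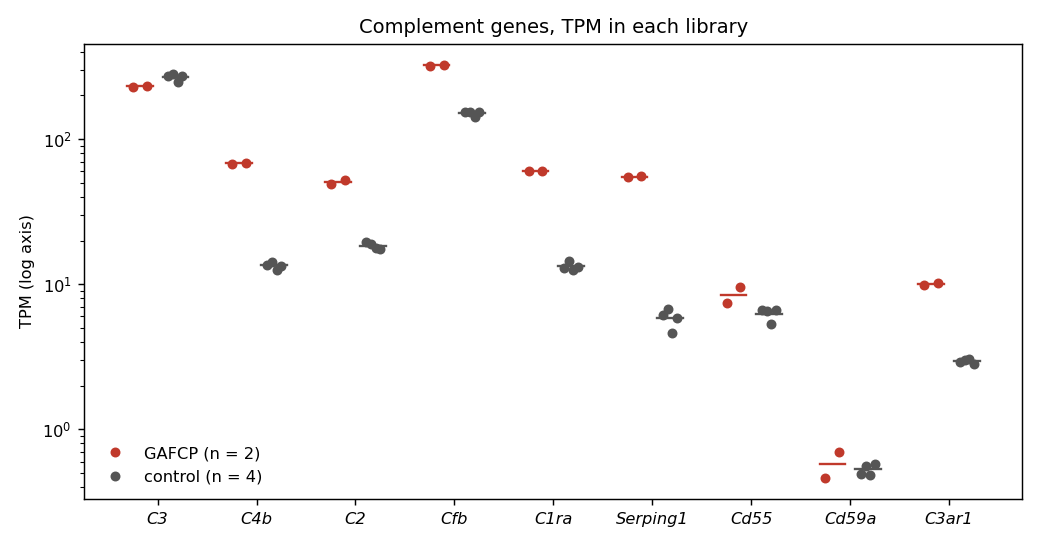
TPM of the 9 complement genes in each library (log axis), with GAFCP libraries (n = 2) left of control libraries (n = 4), and bars at the group means. GAFCP points lie above the control points for 7 genes and below them for C3, and the groups overlap for Cd59a.

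RefSeq promoter windows on GRCm38.p6, each from 250 bases before to 50 bases after a gene's start, were matched for 5 of the 9 genes. The 3 printed here are those of C3, the gene that fell, and of C1ra and C3ar1, the matched genes that rose by more than 1 on the log2 scale. They were searched on both strands for the interferon-gamma activated sequence (GAS) motif TTCNNNGAA, the core ISRE motif GAAANNGAAA bound by interferon regulatory factors, the NF-kappaB consensus and the C/EBP motif TTGCNNAA, and the capitals mark each match. The C3 window is chr17:57228087-57228386, minus strand, the C1ra window chr6:124512371-124512670, plus strand, and the C3ar1 window chr6:122856108-122856407, minus strand, and RefSeq starts can differ from the GENCODE spans given for the genes.
C3: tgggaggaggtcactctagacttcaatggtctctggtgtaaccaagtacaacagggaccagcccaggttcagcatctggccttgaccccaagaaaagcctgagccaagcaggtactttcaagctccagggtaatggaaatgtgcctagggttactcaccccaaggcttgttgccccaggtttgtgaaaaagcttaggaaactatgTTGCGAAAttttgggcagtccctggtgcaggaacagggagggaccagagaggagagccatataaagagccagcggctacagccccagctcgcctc
C1ra: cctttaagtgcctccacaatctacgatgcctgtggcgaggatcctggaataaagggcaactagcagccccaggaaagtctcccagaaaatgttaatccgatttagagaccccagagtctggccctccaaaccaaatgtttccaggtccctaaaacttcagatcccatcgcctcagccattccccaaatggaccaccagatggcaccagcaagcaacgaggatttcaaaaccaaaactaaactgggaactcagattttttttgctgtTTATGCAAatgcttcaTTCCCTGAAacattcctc
C3ar1: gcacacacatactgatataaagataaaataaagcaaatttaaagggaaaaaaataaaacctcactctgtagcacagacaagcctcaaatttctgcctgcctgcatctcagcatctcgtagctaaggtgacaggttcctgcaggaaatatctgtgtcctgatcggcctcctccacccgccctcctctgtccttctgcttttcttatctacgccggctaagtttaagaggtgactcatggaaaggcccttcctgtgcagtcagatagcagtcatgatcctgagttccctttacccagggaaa
The C3 window held 1 match, a C/EBP motif that begins 45 bases before the start. The C1ra window held a C/EBP motif on the opposite strand and a GAS motif, beginning at bases 17 and 33 counted from the start as base 1. No match was found in the windows of C3ar1 and Cd55, and the Cd59a window held 1 ISRE core. Among 32851 RefSeq promoter windows of the same length, 8.30% held the GAS motif, 3.44% the ISRE core, 5.81% the NF-kappaB consensus and 10.8% the C/EBP motif. These matches describe the letters of the windows and were not tested as binding sites.

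C1ra encodes the protease C1r, which activates C1s within the C1 complex. It lies on chromosome 6 from 124512405 to 124523443 (GENCODE M21, GRCm38, the assembly also called mm10; whole-gene span, as for the other positions). C1ra had 60.6 and 60.2 TPM in the GAFCP libraries, against 12.9, 14.6, 12.5 and 13.1 TPM in control libraries 1 to 4. Both GAFCP values lay far above the control range, with means of 60.4 ± 0.295 TPM (SD, n = 2) in GAFCP and 13.3 ± 0.893 TPM (SD, n = 4) in control libraries. The log2 change was 2.11 ± 0.07 (SE; limma adjusted p = 2.1e-07). Its partner C1s1, which encodes the C1s protease that cleaves C4 and C2, lies 6901 bases away on the other strand. C1s1 had 94.9 and 92.8 TPM in GAFCP libraries, against 10.5, 11.2, 10.3 and 10.8 TPM in control libraries 1 to 4, and rose by 3.02 on the log2 scale. The copy C1rb was at or under 0.0933 TPM in every library, and how reads were divided between such related genes was not examined here.

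C4b encodes complement C4, whose larger fragment binds covalently to surfaces. It had 67.8 and 68.8 TPM in GAFCP libraries, against 13.6, 14.3, 12.6 and 13.4 TPM in control libraries 1 to 4. The groups were far apart relative to their spread, and C4b rose by 2.26 ± 0.06 on the log2 scale (SE; limma adjusted p = 8.4e-08). The neighboring paralog C4a was at 0.756 and 0.634 TPM in GAFCP, against 0.856 to 1.17 TPM in control libraries, and was not called (log2 change -0.25, limma adjusted p = 0.17). C4b was therefore 89.6 and 108.6 times as abundant as C4a in the GAFCP libraries, against 11.6 to 15.7 times in control libraries. The paralogs are close in sequence and reads may have been divided between them in the authors' quantification.

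C2 and Cfb encode the serine proteases that give the classical and the alternative C3 convertase their activity. C2 had 49.2 and 51.9 TPM in GAFCP libraries, against 19.4, 19.0, 17.7 and 17.6 TPM in control libraries 1 to 4. Its log2 change was 1.41 ± 0.06 (SE; limma adjusted p = 1.2e-06), and the groups did not overlap. Cfb was the more abundant of the pair in every library, with 321 and 325 TPM in GAFCP libraries, against 153.1, 154.3, 142.7 and 153.3 TPM in control libraries 1 to 4. Its log2 change was 1.09 ± 0.04 (SE; limma adjusted p = 6.1e-07), and control library 3 stood below the other controls. Both genes lie on chromosome 17 on the minus strand, Cfb from 34856374 to 34862518 and C2 from 34862604 to 34898265, with 85 bases between them. C4b is on the same strand from 34728380 to 34743882, so the 3 genes fall within a stretch of 169.9 kb, part of the MHC class III region. The annotated gene Gm20547 spans from 34856412 to 34882042 across both Cfb and C2 and is not a row of the table. Whether it was part of the authors' quantification is not known, and how reads were divided between C2 and Cfb was not examined.

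C3 was the one gene of the 9 that fell. It lies on chromosome 17 from 57203970 to 57228136. C3 had 228.2 and 233.4 TPM in GAFCP libraries, against 272.8, 280.2, 245.5 and 270.9 TPM in control libraries 1 to 4. Both GAFCP values were below all 4 control values, and the nearest control, library 3, was closer to the GAFCP libraries than to control library 2. The means were 231 ± 3.69 TPM (SD, n = 2) in GAFCP and 267 ± 15.1 TPM (SD, n = 4) in control libraries, a difference of -13.7%. The log2 change was -0.21 ± 0.05 (SE; limma adjusted p = 0.014), next to a median of -0.07 over all genes tested. C3 did not pass without GAFCP library 1 (log2 change -0.19, adjusted p = 0.0954) or without GAFCP library 2 (-0.23, adjusted p = 0.0604), where the spread of the single GAFCP library left is taken from the controls. Over all 19 other settings its adjusted p was 6.1e-04 to 0.0954. With median-of-ratios scaling, which centers the median gene near 0, its log2 change was -0.14 (adjusted p = 0.0074).

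Hepatocyte markers stood apart in control libraries 1 and 2. The summed TPM of 8 hepatocyte markers was 5.13 and 4.62 in GAFCP libraries, and 127.6, 172.1, 9.67 and 9.84 in control libraries 1 to 4. Alb, which encodes albumin, was listed at 0 in GAFCP libraries 1 and 2 and had 29.9, 43.7, 0.228 and 0.235 TPM in control libraries 1 to 4, and Fga was likewise listed at 0 in GAFCP libraries. C3 averaged 231 TPM in GAFCP, 276.5 TPM in control libraries 1 and 2 and 258.2 TPM in control libraries 3 and 4. Its log2 change was -0.26 (limma adjusted p = 0.0042) against control libraries 1 and 2 alone and -0.16 (adjusted p = 0.0449) against control libraries 3 and 4 alone. The part of hepatocyte transcripts in the C3 values was not tested. With control libraries 3 and 4 alone, 7 of the 8 called genes passed, against 40.4% of all genes tested there. With control libraries 1 and 2 alone it was also 7, against 48.7%. Cd55 was the gene that did not pass in either case.

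**Figure D2:**
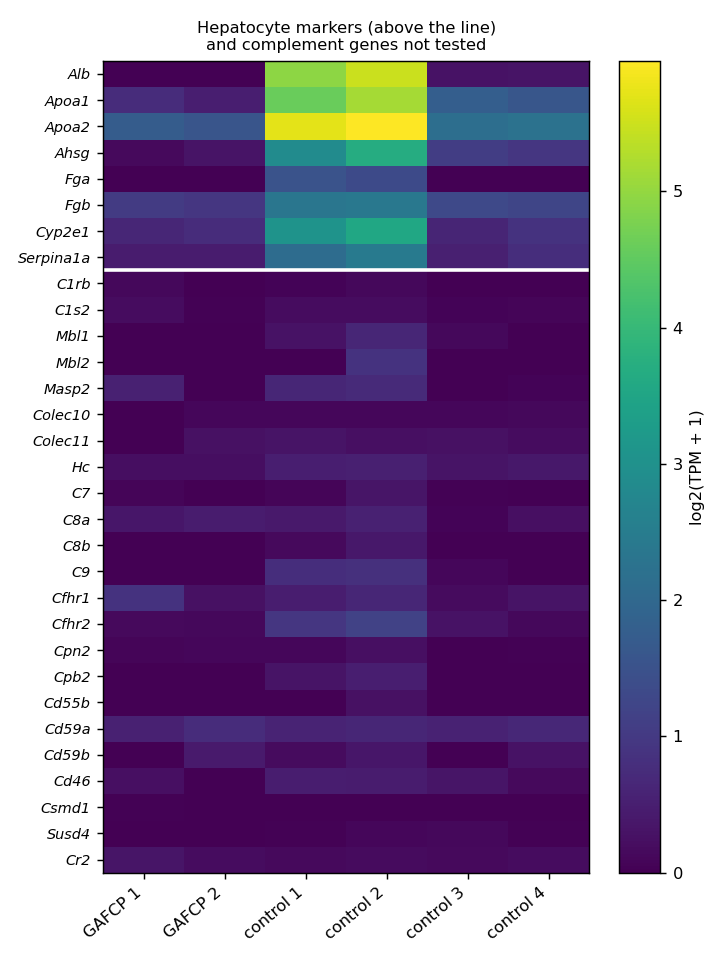
log2(TPM + 1) in each library (columns, GAFCP left of control) for 8 hepatocyte markers, above the line, and for the complement genes that were not tested and not at 0 throughout, below it. The hepatocyte markers are brightest in control libraries 1 and 2, and liver-type complement genes such as C9 and Cfhr2 follow at levels of 1.27 TPM or less.

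The balance between C3 and Cfb changed with these opposite shifts. C3 was the most abundant of the 9 genes in control libraries and Cfb the most abundant in GAFCP libraries. There were 0.712 and 0.718 TPM of C3 for each TPM of Cfb in the GAFCP libraries, against 1.72 to 1.82 in the control libraries, and the groups did not overlap. Below these genes the order in GAFCP libraries was C4b, C1ra, Serping1, C2, C3ar1, Cd55 and Cd59a, and no neighbors in it overlapped. In control libraries the order was C2, C4b, C1ra, Cd55, Serping1, C3ar1 and Cd59a, where C4b overlapped C1ra and Cd55 overlapped Serping1. These ratios and orders were chosen after the values were seen and are descriptions without a test.

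Serping1 encodes the C1 inhibitor, a serpin that inactivates C1r and C1s. It showed the largest log2 change of the 8 tested genes and ranked 35 among all 13720. Serping1 lies on chromosome 2 from 84765387 to 84775444. It had 54.5 and 55.6 TPM in GAFCP libraries, against 6.12, 6.72, 4.64 and 5.81 TPM in control libraries 1 to 4. The GAFCP values lay close together and far above every control value, and Serping1 rose by 3.05 ± 0.12 on the log2 scale (SE; limma adjusted p = 6.8e-07). For each TPM of C1ra there were 0.900 and 0.924 TPM of Serping1 in GAFCP libraries, against 0.370 to 0.475 in control libraries. For each TPM of C1s1 there were 0.574 and 0.599 TPM of Serping1 in GAFCP libraries, against 0.452 to 0.599 in control libraries, and there the groups overlapped. The log2 changes of Serping1, C1s1 and C1ra were 3.05, 3.02 and 2.11.

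Of 8 membrane regulators 2 were tested, and Cd55 was the one called. It encodes decay-accelerating factor, which dissociates C3 convertases, and it lies on chromosome 1 from 130439027 to 130462744. It had 7.39 and 9.58 TPM in GAFCP libraries, against 6.67, 6.49, 5.30 and 6.60 TPM in control libraries 1 to 4. GAFCP library 1 was just above the highest control and GAFCP library 2 well above it. The log2 change was 0.38 ± 0.12 (SE; limma adjusted p = 0.0369), and Cd55 did not pass under 8 of 19 other settings, over which its adjusted p was 0.012 to 0.300. Its log2 change was 0.55 without GAFCP library 1 and 0.21 without GAFCP library 2, and the call was lost in the second case. Cd59a, which encodes a blocker of the membrane attack complex, was at 0.461 and 0.697 TPM in GAFCP libraries, against 0.497, 0.562, 0.484 and 0.579 TPM in control libraries 1 to 4. Its groups overlapped. The related Cd59b was at or under 0.338 TPM in every library and Cd55b at or under 0.194 TPM. Cr1l, which encodes Crry, a rodent regulator of C3 convertases, was at 22.9 and 23.4 TPM in GAFCP libraries, against 22.2 to 25.4 TPM in control libraries, and was not called (log2 change -0.03, limma adjusted p = 0.731). Its log2 change ranged from -0.12 to 0.06 over the other settings and took either sign.

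**Figure D3:**
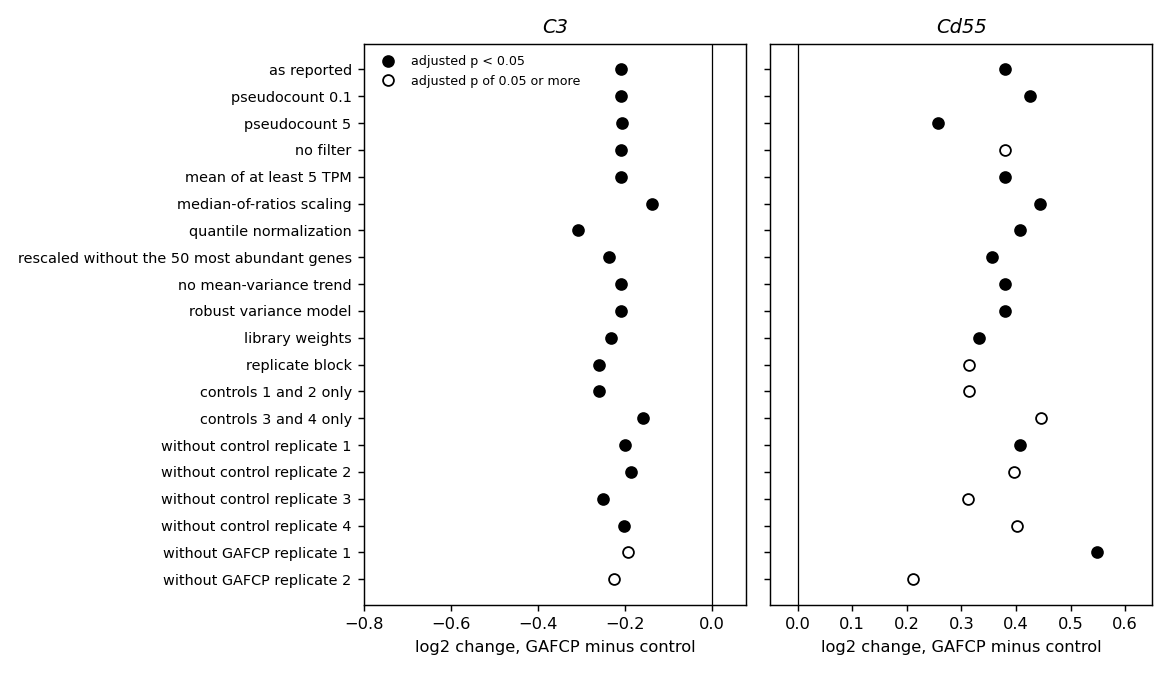
log2 change of C3 and of Cd55, GAFCP minus control, under the reported setting and 19 other settings; filled points have an adjusted p under 0.05. C3 is below 0 throughout, from -0.31 to -0.14, and open when either GAFCP library is left out, while Cd55 is above 0 throughout, from 0.21 to 0.55, and open in 8 settings.

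C3ar1 encodes the receptor for the C3a fragment and is found mainly on myeloid cells. It lies on chromosome 6 from 122847138 to 122856161. C3ar1 had 9.92 and 10.2 TPM in GAFCP libraries, against 2.91, 3.001, 3.05 and 2.84 TPM in control libraries 1 to 4. The groups were well separated, and C3ar1 rose by 1.49 ± 0.08 on the log2 scale (SE; limma adjusted p = 4.1e-06). Its log2 change was 1.74 with 0.1 TPM and 0.92 with 5 TPM added before taking logs. C5ar1, the receptor for C5a, had 22.1 and 23.0 TPM in GAFCP, against 4.48 to 5.79 TPM in control libraries and a log2 change of 1.96. For each TPM of C5ar1 there were 0.448 and 0.444 TPM of C3ar1 in GAFCP libraries, against 0.518 to 0.634 in control libraries.

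Set against the summed macrophage markers of the same library, Serping1, C4b and C1ra were higher in GAFCP libraries. C2, Cfb, C3, Cd55 and, by the least, C3ar1 were lower. Apoe and Lyz2, at 2780 and 1357 TPM on average in GAFCP libraries, made up most of that sum. By mean TPM, GAFCP over control, Lyz2 was 3.30 times, Csf1r 5.23 times and Adgre1 5.47 times as high. C4b, C1ra and C3ar1, at 5.06, 4.55 and 3.41 times, lay between these, so their direction depends on the marker used. C2, at 2.75 times, rose by less than Lyz2 and by more than the marker Cd68, at 2.32 times. Cfb and Cd55, at 2.14 and 1.35 times, rose by less than Cd68 and by more than the marker Cd14, at 1.19 times. For each 1000 TPM of summed macrophage markers there were 1.84 and 1.93 TPM of C3ar1 in GAFCP libraries, against 1.95 to 2.10 TPM in control libraries, and the groups did not overlap. For each TPM of Csf1r alone there were 0.105 and 0.108 TPM of C3ar1 in GAFCP libraries, against 0.151 to 0.177 in control libraries. For each TPM of the pan-leukocyte marker Ptprc there were 0.979 and 1.08 TPM of C3ar1 in GAFCP libraries, against 0.929 to 1.41 in control libraries. On the Ptprc scale the groups overlapped. Serping1 was higher on the scale of summed macrophage markers, with 10.1 and 10.5 TPM in GAFCP libraries, against 3.19 to 4.37 TPM in control libraries. C4b and C1ra were higher by less, C4b with 12.6 and 13.0 TPM in GAFCP, against 8.69 to 9.44 TPM in control libraries, and C1ra with 11.3 TPM in both GAFCP libraries, against 8.63 to 9.47 TPM in control libraries. C2 was lower on this scale, with 9.15 and 9.79 TPM in GAFCP, against 12.1 to 13.5 TPM in control libraries. Cfb had 59.6 and 61.3 TPM in GAFCP, against 98.3 to 106.5 TPM in control libraries, and C3 had 42.4 and 44.0 TPM in GAFCP, against 169.1 to 189.8 TPM in control libraries. Cd55 was also lower on this scale, at 1.37 and 1.81 TPM in GAFCP, against 3.65 to 4.65 TPM in control libraries. These are descriptions, chosen after the values were seen, and no test was made of them.

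**Figure D4:**
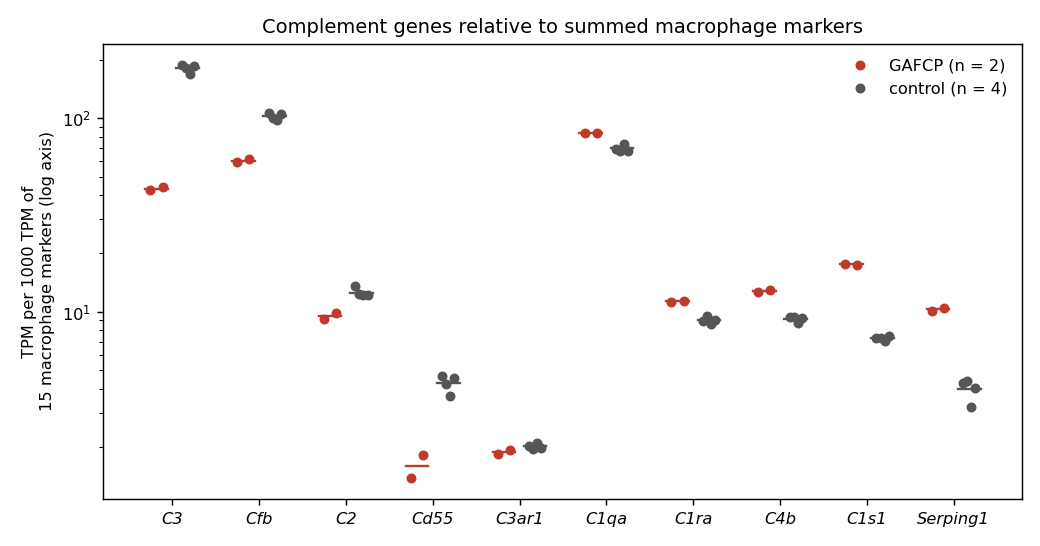
TPM of complement genes per 1000 TPM of 15 summed macrophage markers in each library (log axis), GAFCP (n = 2) left of control (n = 4), bars at the group means. C3, Cfb, C2 and Cd55 are lower in GAFCP libraries on this scale, and C3ar1 lies just below the controls. C1qa, C1ra, C4b, C1s1 and Serping1 lie above the controls. The genes drawn are a choice, with C1qa and C1s1 taken from the wider pathway. Among those not drawn, Fcna and Cfp were below the controls on this scale, and C1qb, C1qc and C6 above them. Apoe and Lyz2 make up most of the sum, and C1qa, C1ra and C4b rose by less than Csf1r by mean TPM.

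The wider pathway was read from a list of complement genes, of which 58 were in the table, the 9 genes included. Of these 34 were tested, and 22 were higher and 6 lower, so 82.4% were called, against 47.5% of all genes tested. The median log2 change was 0.93 over the 34 genes. Of the 34 genes, 2 (C5ar2 and Vsig4) passed the filter only through the GAFCP group and 5 (Masp1, C4a, Cfd, Vtn and Cpn1) only through the control group, so that whether these were tested at all depended on 1 group. Without the 9 genes, 26 were tested, 15 of them higher and 5 lower.

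All 5 tested genes of classical initiation were called higher, against 19.0% of all genes tested. The C1q chains, made mainly by macrophages, changed together: C1qa averaged 447.9 ± 6.09 TPM (SD, n = 2) in GAFCP and 102.6 ± 4.10 TPM (SD, n = 4) in control libraries, and the log2 changes of C1qa, C1qb and C1qc were 2.12, 2.12 and 2.17. For each TPM of C1ra there were 7.47 and 7.37 TPM of C1qa in GAFCP libraries, against 7.18 to 8.57 in control libraries, and the groups overlapped. For each TPM of C1s1 there were 4.77 and 4.78 TPM of C1qa in GAFCP libraries, against 9.11 to 10.5 in control libraries. Of the lectin pathway genes 2 of 8 were tested. Fcna, which encodes ficolin A, a macrophage-expressed recognition molecule in mice, averaged 49.9 TPM in GAFCP and 20.7 TPM in control libraries (log2 change 1.24), and the protease gene Masp1 was lower, at 0.220 TPM in GAFCP and 1.24 TPM in control libraries.

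Among other convertase genes Cfp, which encodes properdin, a stabilizer of the alternative convertase, averaged 88.4 TPM in GAFCP and 25.9 TPM in control libraries (log2 change 1.73). Cfd, which encodes factor D and is known as an adipocyte product, was at 0.220 and 0.457 TPM in GAFCP libraries and at 7.25, 1.61, 0.117 and 0.645 TPM in control libraries 1 to 4, and was not called. Of the terminal pathway, which forms the membrane pore, C6 averaged 16.6 TPM in GAFCP and 2.46 TPM in control libraries (log2 change 2.34), while C8g was not called (log2 change -0.47, limma adjusted p = 0.0543). In 6 of 19 other settings C8g was called lower, with an adjusted p of 0.0097 to 0.197 over all 19. The other terminal genes Hc, C7, C8a, C8b and C9 stayed under 1 TPM in every library. C9 was listed at 0 in GAFCP libraries 1 and 2 and had 0.720, 0.784, 0.0780 and 0 TPM in control libraries 1 to 4, where the first 2 controls were those with hepatocyte transcripts.

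Of 7 tested soluble regulators 3 were higher and 3 lower, where 19.0% of all genes tested were called higher and 28.5% lower. Besides Serping1, Cfi, which encodes the protease factor I, averaged 17.8 TPM in GAFCP and 11.7 TPM in control libraries (log2 change 0.57). Clu, which encodes clusterin, an inhibitor of the terminal complex, was the most abundant gene of the list, at 6911 ± 48.6 TPM (SD, n = 2) in GAFCP and 8399.7 ± 201.8 TPM (SD, n = 4) in control libraries (log2 change -0.28). C4bp was lower (log2 change -0.48), a call lost without GAFCP library 1, GAFCP library 2 or control library 4 and with the replicate number as a block (log2 changes -0.50, -0.45, -0.41 and -0.46, adjusted p of 0.0071 to 0.125 over its 18 other settings). Cpn1, a subunit of the carboxypeptidase that inactivates C3a and C5a, was lower, and averaged 0.552 TPM in GAFCP and 3.42 TPM in control libraries. It reached the filter only through control libraries. Of 9 tested receptor genes 7 were higher and 1 lower, and 2 of the 7, C5ar2 and Vsig4, reached the filter only through GAFCP libraries. Itgam and Itgb2, the subunits of complement receptor CR3, averaged 24.1 and 32.4 TPM in GAFCP libraries, and 11.6 and 15.9 TPM in control libraries, whereas Itgax, the alpha subunit of CR4, averaged 1.63 TPM in GAFCP and 3.14 TPM in control libraries (log2 change -0.66). Vsig4, a macrophage receptor for C3 fragments, averaged 3.11 TPM in GAFCP and 0.699 TPM in control libraries. C5ar2, a further C5a receptor, had a log2 change of 0.42, and its call was lost in 6 of 16 other settings. C1qbp, a mainly mitochondrial protein that can bind C1q, was not called (log2 change 0.09, limma adjusted p = 0.0895). In 3 of 19 other settings it was called higher, with a limma adjusted p of 0.0201 to 0.934 over all 19.

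**Figure D5:**
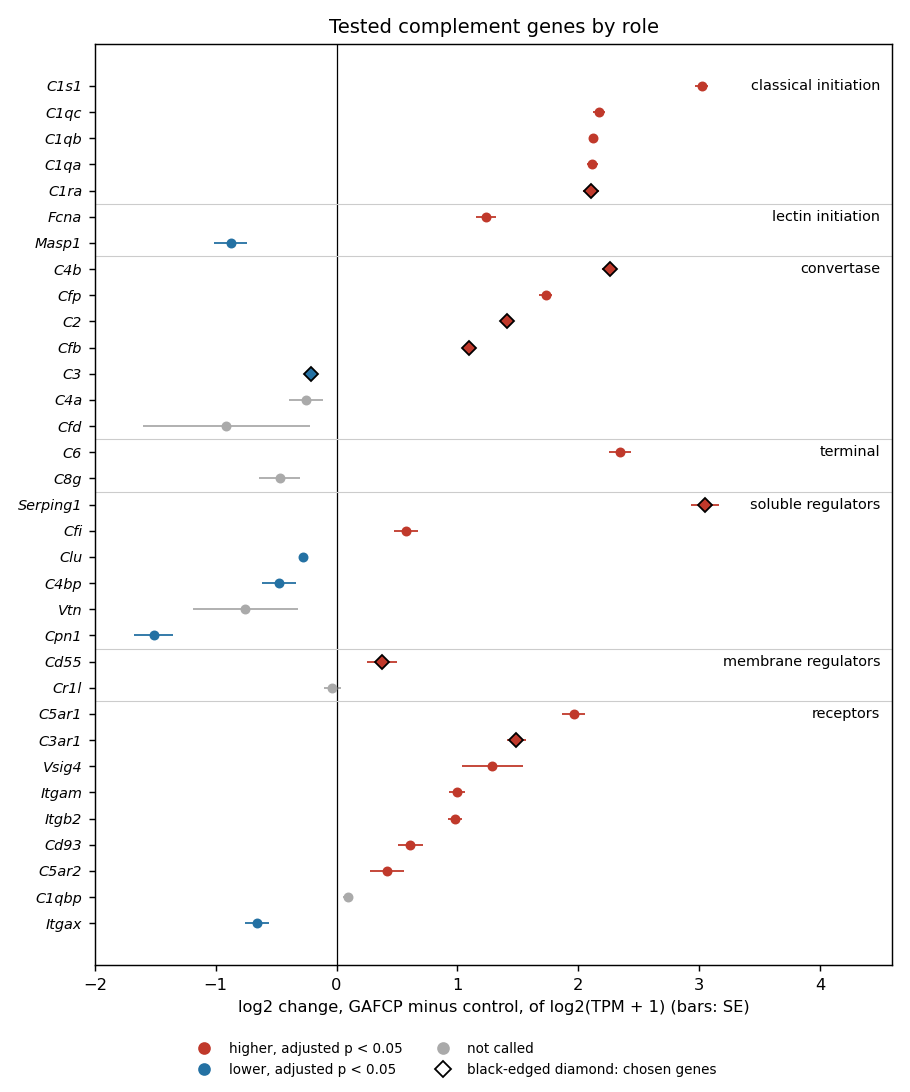
log2 change, GAFCP minus control, with SE for tested complement genes grouped by role (not all are drawn); black-edged diamonds mark the chosen genes, red points were called higher, blue lower and gray not called. The 5 classical initiation genes are all above 2, and C3, at -0.21, is the chosen gene below 0.

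Transcription factors known to act on complement promoters differed among themselves. Irf1, which carries interferon signals, averaged 295.1 TPM in GAFCP and 76.1 TPM in control libraries, with a log2 change of 1.94. Cebpb averaged 184.7 TPM in GAFCP and 99.96 TPM in control libraries (log2 change 0.88), and Stat3 and Cebpd had log2 changes of 0.50 and 0.42. The NF-kappaB subunit genes Nfkb1 and Rela were not called (log2 changes 0.03 and -0.06). Hnf4a, a factor of liver and gut epithelium, averaged 49.9 TPM in GAFCP and 86.4 TPM in control libraries (log2 change -0.78). Whether these factors had a part in the complement values was not tested.

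Profiles over the 6 libraries were compared by the root mean square difference of log2(TPM + 1), each gene set to its own control mean. Among the tested genes other than the 9, the nearest to C3 were Zmym2, Ganab and Tnpo3, at differences of 0.00925, 0.0123 and 0.0143. Those nearest to C4b were Apol9b, Tap1 and Gas6, and to C2 they were Uba7, Pde7b and Mlkl. Those nearest to Cfb were Enc1, Stk38l and Erap1. The nearest to C1ra were Stab1, Mpeg1 and C1qb, at 0.0410 to 0.0469, and to Serping1 they were Igtp, Gm12250 and C1s1, at 0.0756 to 0.110. Those nearest to Cd55 were Phyh, Gmppb and Arv1, and to C3ar1 they were Prl2c2, Nupr1 and B2m. Among the 9 genes the closest pairs were C2 with C3ar1, at 0.0697, and C4b with C1ra, at 0.0915. Such a difference mostly reflects how alike 2 log2 changes are, and shared regulation was not tested. The log2 changes of C2 and C3ar1 were 1.41 and 1.49, while by mean TPM they were 2.75 and 3.41 times as high in GAFCP as in control libraries.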

How the data were processed

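Gene TPM values of 24493 genes in 6 bulk RNA libraries were used as the authors deposited them. They came from Salmon and mm10, per the submitters' processing notes. Its version, annotation and library type were not given in the sources used here. TPM keeps no depth, so neither counting intervals nor count tests were used.

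The test used limma 3.58.1 (R 4.3.3) on log2(TPM + 1), with a trend of variance on mean level, 4 residual degrees of freedom and a floor of 1 TPM reached by 2 libraries or more. Each log2 change subtracts the control mean from the GAFCP mean and understates changes of low genes. The 9 genes, all gene lists, the naming rule and the 19 other settings were chosen with earlier results of these data known. Named were the 9 genes, tested complement and transcription factor genes, defining markers and the 3 nearest profiles. Some items of these lists are counted but not reported by name. Genes under the filter, Fga, Apoe, Cd68, Cd14 and some neutrophil, T and NK cell markers were named after their values were seen. Other settings changed pseudocount, filter, scaling, variance model, library weights, replicate block and libraries. Promoters came from RefSeq and positions from GENCODE M21.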

Additional observations from a re-analysis of the deposited data

Results flagged for a closer look

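In 3 of 35 complement genes examined 1 control library lay far from the other 3 by Dixon's ratio, the gap to the nearest library divided by the whole range, where chance gives about 1 in 20. The ratio was 0.892 for Cfb, 0.867 for Cd55 and 0.886 for Cpn1, and in each of them control library 3 was the low one. Cfb was at 142.7 TPM in control library 3 and at 153.1 to 154.3 TPM in the other controls. Cd55 was at 5.30 TPM there and at 6.49 to 6.67 TPM in the other controls, and without this library its log2 change was 0.31 (limma adjusted p = 0.0514). Cpn1 was at 2.65 TPM there and at 3.59 to 3.71 TPM in the other controls.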

How the results depend on the processing

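C4b, C2, Cfb, C1ra, Serping1 and C3ar1 were called higher under all 19 other settings. C3 stayed below 0 in all 19 and was not called without GAFCP library 1 or 2 (adjusted p = 0.0954 and 0.0604), with log2 changes of -0.25 to -0.19 over the settings that leave out 1 library, where genes called lower among the 9 numbered 0 to 1. Cd55 stayed above 0 and was not called with no filter (0.38, adjusted p = 0.0734), with control libraries 1 and 2 alone (0.31, adjusted p = 0.102) or 3 and 4 alone (0.45, adjusted p = 0.053). It was also not called without control library 2, 3 or 4 or GAFCP library 2, with log2 changes of 0.21 to 0.55 over all 6 such settings. The cause was not tested. Leaving out 1 library gave 4258 to 7226 calls over all genes, 1715 to 2610 higher and 2514 to 4641 lower. The lowest counts came without a GAFCP library, 4258 without library 1 and 4313 without library 2. Median-of-ratios scaling turned the split of calls from 2606 higher and 3909 lower into 3548 higher and 3321 lower. At a mean of at least 5 TPM, where fewer genes were tested, 3 complement genes were lower in place of 6. Of 473 values of the 26 other tested complement genes, 451 kept their side of the threshold, 10 were no longer called, 12 became called and 0 reversed.

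The labels do not say whether replicate numbers shared between groups pair the libraries. Deviations from group means of the libraries numbered 1 correlated at -0.0073 and of those numbered 2 at -0.0195. With only 2 GAFCP libraries their deviations mirror each other, so these values cannot decide whether libraries were paired. With the replicate block 5894 genes were called, and Cd55 was not (log2 change 0.31, adjusted p = 0.118).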
